A study of Dicentrarchus labrax with 35 samples.

Results

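The 200 probes described here stood for transcripts of the European sea bass (Dicentrarchus labrax). Their level was lower in the juvenile testes of all 4 growth histories that were studied than in the sexually undifferentiated gonad. The probes were picked from 24200 sea bass probes, which stand for 11705 target sequences, with the matrix of log2 values that the authors deposited. The mean of the testes of groups FF, SF and SS had to lie at least 1 log2 unit, which is 2-fold, below the mean of the T1 gonads, and the mean of FS fish 1, 2 and 4 had to lie within 0.5 log2 units of the other testes. Of the 2009 probes that met the first limit, 1025 also met the second, 285 were higher by 0.5 or more in FS fish 1, 2 and 4, and 699 were lower by as much. After the lowest probe of each target was kept, 583 targets were left, and the 200 with the lowest difference form the set. The last probe inside the limit of 200 had a difference of -1.744 and the first one outside it had -1.743. The difference with age chose the probes, so it is given below as a description, with no test.

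The samples were 35 gonads, with 1 fish and 1 single-dye array per sample. Fish are numbered by their sample titles, which for the testes differ from the numbers in the file names, so single testes may not bear the numbers used elsewhere in the study. At T2 (332 days post fertilization in the sample labels) the arrays held testes from 4 groups of 5 fish. FF fish had grown fast and were then fed generously so that they went on growing fast, and SF fish had grown slowly and were then fed generously. FS fish had grown fast and were then given less food, and SS fish had grown slowly and were also given less food. At T1 (133 days post fertilization) there were 7 fast-growing fish (group F) and 8 slow-growing fish (group S), chosen from the large and the small end of 1 population, all with gonads that the labels call undifferentiated. The sex of the T1 fish is not given in the labels, while the T2 fish were all males. F and S fish were sampled at T1 and the T2 fish were other individuals, so no fish was followed over time.

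The gonad of a young sea bass is at first a bipotential organ, in which somatic cells and primordial germ cells lie together without the structures of an ovary or a testis. Ovaries differentiate before testes in this species. The testis then forms cysts in which Sertoli cells surround germ cells, with Leydig cells between them that make steroids. A whole gonad was measured here, so a lower level can come from fewer cells of a type or from less RNA in each cell, and these cannot be told apart. Per the study, groups derived from F and from S later held females as well as males. The T1 gonads can thus include future ovaries, while the T2 fish were all males. In what is called the difference with age below, age and sex cannot be told apart. The probes carry no gene names in the files used here, and none of their target names matched the RefSeq table of 30274 sea bass genes, so neither the functions of the 200 transcripts nor the defining markers of the labelled tissues could be looked up. They are therefore described by their levels, by their rank in the difference with age (rank 1 is the lowest difference), and by how they varied together.

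The arrays were read on 2 scan days and lay on 9 slides. All F gonads and S fish 1 to 4 were scanned on day 2, together with FF fish 2, while S fish 5 to 8, which filled slide 1, and the other 19 testes were scanned on day 1. Slide 9 was the only slide with gonads of both ages (FF fish 2 and S fish 2, 3 and 4). The median brightness of an array was 178 to 752 in the testes and 112.5 to 285 in the T1 gonads, and the share of sea bass spots well above background was 67.2 to 87.8% in the testes and 43.2 to 74.4% in the T1 gonads. The level of the spike-in probes, relative to the 75th percentile of the array, averaged 4.40 ± 0.92 in SS, against -0.57 ± 1.52 in FF, -0.62 ± 1.01 in FS, -1.09 ± 0.63 in SF, -0.25 ± 1.11 in F and 0.63 ± 1.47 in S (log2, SD). Its part in the results below was not tested, beyond the scaling to the spike-in probes that is given with the other settings.

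On the log2 scale of normalised intensity, the 200 probes had a median level of 7.95 in the 15 testes of FF, SF and SS and of 10.66 in the T1 gonads. The means of single probes ran from 7.10 to 12.26 in these testes and from 8.93 to 17.60 at T1. Over all probes the medians were 8.50 and 8.49. Not every probe of the set was therefore dim in the testes, while at T1 each had a mean above the median of all probes. The median difference, testes minus T1 gonads, was -2.48, with quartiles of -3.16 and -2.02 and a range of -8.25 to -1.74, against a median of 0.01 over all 24200 probes. The difference reached at least 4-fold for 154 of the 200 probes and at least 16-fold for 26 of them, against 2.31% and 0.347% of all probes. The probes were chosen for this difference, so nothing is read from these shares. The median of the 200 probes in each array was 7.86 ± 0.15 in FF, 7.87 ± 0.14 in FS, 7.99 ± 0.17 in SF and 7.88 ± 0.094 in SS (SD, n = 5 each), against 10.69 ± 0.30 in F (n = 7) and 10.93 ± 0.23 in S (n = 8). Every testis, at 7.68 to 8.22, lay below every T1 gonad, at 10.27 to 11.20.

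The same order was seen before any normalization. The median brightness of the 200 probes was 106.5 to 410.75 in the testes (median 200.1 over the 20 arrays) and 508 to 2319 in the T1 gonads (median 1061), although the arrays of the testes were mostly the brighter ones over all spots. Taking the probes 1 by 1, every T1 gonad lay above all 20 testes for 109 of the 200 (54.5%), and 2.52% of all probes did so. The choice of the probes used most of these arrays, so nothing is read from this difference in shares. FS fish 3 and 5 had no part in the choice, and both lay below every T1 gonad for 146 probes (73.0%), against 8.2% of all probes. The T1 gonads in this count were used to choose the probes, and over all probes these 2 testes lay close to the others, so nothing is read from these shares either.

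The difference was below 0 along each growth history. Its size also differed between the clusters (defined below). The clusters were formed from the same F and S gonads, so their values here repeat the clustering and are given as a description. From group means, the median difference was -2.34 for FF minus F, -2.37 for FS minus F, -2.60 for SF minus S and -2.66 for SS minus S. All 200 probes were lower in each of these 4 differences, and 196, 198, 200 and 200 of them by at least 2-fold, while over all probes the share that was lower by at least 2-fold was 8.56%, 11.8%, 8.51% and 8.69% in the same order. The rule used most of these arrays to choose the probes, so nothing is read from these shares. For the 65 probes of cluster 2 the medians were -1.86 for FF minus F and -1.90 for FS minus F, and -3.25 for SF minus S and -3.27 for SS minus S. For the 88 probes of cluster 1 the sizes ran the other way, at -2.72, -2.73, -2.17 and -2.31 in the same order. Within scan day 1, the median difference was -2.76 between 19 testes and 4 S gonads, and within scan day 2 it was -2.28 between the testis of FF fish 2 and 11 T1 gonads. These medians hide values of the clusters that differed between the days. Cluster 1 had -1.81 on day 1 and -2.55 on day 2, and cluster 2 had -4.34 on day 1 and -1.88 on day 2. The T1 groups and the testes compared also differed between the days, so scan day and fish cannot be told apart. On slide 9, the testis of FF fish 2 was lower than the mean of S fish 2, 3 and 4 by at least 2-fold for all 200 probes (8.21% of all probes), with a median difference of -2.46, and lay below each of the 3 S fish for 192 probes (34.8% of all probes). The rule used the arrays of both scan days and of slide 9, so nothing is read from these values either.

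The size of the difference was limited for the dimmest probes by the background of the testis arrays. On each array, 52.0 to 92.5% of the 200 probes were well above background in the testes and 82.9 to 100% in the T1 gonads. Of the 200 probes, 77 were well above background in all 20 testes, 146 in all 15 T1 gonads, and 4 in none of the 20 testes. For the 6 probes that were not well above background in any of the 15 testes of FF, SF and SS only a lower bound can be given. With the floor on each testis array set to the level of the dimmest probe well above background, or to the probe's own level where that was higher, the testes were at least 3.04-fold to at least 16.3-fold lower for these 6 probes.

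The probe with the lowest difference, CUST_14589_PI416070213, was the brightest of the set in the undifferentiated gonad. Its log2 level was 8.69, 9.05, 8.53, 12.01 and 8.89 in FF, 8.77, 8.88, 8.78, 8.97 and 9.85 in FS, 8.52, 9.29, 9.73, 8.88 and 8.82 in SF, and 8.94, 8.94, 10.22, 9.49 and 10.21 in SS. At T1 it was 17.08 to 18.47 in F (median 17.74) and 16.52 to 17.93 in S (median 17.56). The groups at T1 and T2 did not overlap, and FF fish 4, the highest testis, was still 4.51 log2 units below the lowest T1 gonad. The mean difference was -8.25, or 304-fold lower in the testes, with SDs of 0.91 over the 15 testes and 0.50 over the 15 T1 gonads. The raw brightness was 231 to 4907 in the testes and 72572 to 388890 in the T1 gonads. Its target was a single cDNA read, and the other 2 probes against that read had differences of -8.26 and -7.34.

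The second probe, CUST_4498_PI415922062, had a mean difference of -7.89, or 237-fold lower in the testes, where it was well above background in 14 of the 20 arrays, so that the exact fold rests partly on dim spots. Its level was 7.87, 7.71, 7.40, 7.28 and 7.55 in FF, 7.83, 7.55, 7.48, 7.71 and 7.52 in FS, 7.43, 7.82, 7.55, 7.88 and 7.83 in SF, and 7.86, 7.93, 7.95, 7.86 and 8.91 in SS, against 15.82 to 17.10 in F (median 16.39) and 11.62 to 16.80 in S (median 15.77). All T1 gonads lay between 15.38 and 17.10 except S fish 5, at 11.62, and S fish 6, at 12.17, so that the T1 gonads differed among themselves by more than 5 log2 units while the testes spanned less than 2. No other probe of the array was directed at its target.

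The probes of rank 3 and rank 4 are described in addition and were chosen after their values were seen, because they follow in the order and belong to clusters 2 and 3. They were well above background in only 5 (rank 3) and 8 (rank 4) of the 20 testes, so their testis levels rest mostly on dim spots. The probe of rank 3, directed at a contig, had a mean difference of -6.34, and the other 2 probes of its target had -5.97 and -3.14. For rank 4 the values were -6.04, and -5.90 and -5.60. The probe of rank 3 had levels of 7.18 to 7.54 in the 15 testes of FF, FS and SF. In SS it was 7.24 to 7.37 in fish 1 to 4 and 9.89 in fish 5. At T1 it ran between 9.05 and 15.81 in F and between 11.50 and 17.42 in S. The lowest T1 gonads were F fish 2 at 9.05 and F fish 1 at 9.68, both below the testis of SS fish 5. The probe of rank 4, also directed at a contig, was 7.06 to 7.81 in the testes of FF, FS and SF and 7.52 to 9.37 in those of SS, against 12.04 to 17.68 in F and 11.61 to 16.54 in S. Its highest level was in F fish 7, at 17.68, and the other F gonads lay at 12.04 to 13.74. SS fish 5 was again the highest testis, as it was for the probe of rank 2.

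**Figure D1:**
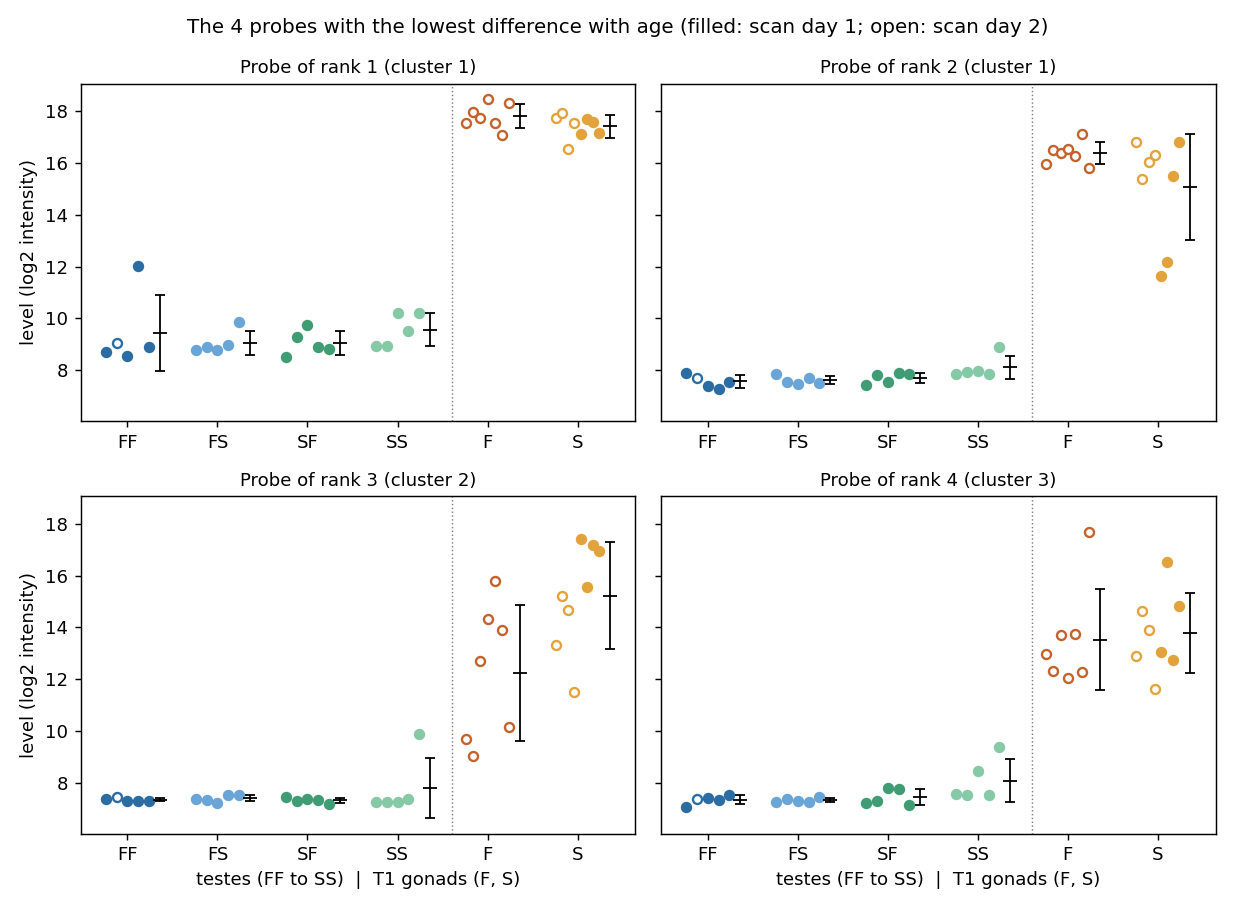
Log2 level of the 4 probes with the lowest difference with age, 1 panel each, in every fish (points, filled for scan day 1 and open for scan day 2), with the group mean and SD as a bar at the right of each group and testes left of the dotted line. The T1 gonads of the probe of rank 1 lie close together at 16.52 to 18.47, whereas those of the probe of rank 3 run between 9.05 and 17.42.

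The probes that were lower in the testis were also more even there. The SD of a probe over the 15 testes had a median of 0.30, against 1.03 over the 15 T1 gonads, while over all probes the medians were 0.25 in the testes and 0.33 in the T1 gonads. The SD was the larger one at T1 for 194 of the 200 probes (97.0%), and for 67.5% of all probes. The same arrays chose the probes for T1 levels above testis levels, so nothing is read from these shares. Within groups, the median SD was 0.26 in FF, 0.24 in FS, 0.23 in SF and 0.22 in SS, against 0.85 in F and 1.01 in S, so the spread at T1 was present within F and within S and not only between them. For the 134 probes of the set with 2 spots on the array, the 2 spots differed by 0.19 (median absolute log2 difference). Probes near background vary less on this scale because the normexp offset of 50 compresses low values, and the part of this in the difference in spread was not tested.

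Among the T1 fish the 200 probes did not vary as 1 block. Pearson's r between pairs of probes over the 15 T1 gonads had a median of -0.01 over 19900 pairs, with 148 pairs, made by 68 probes, above 0.95 and 161 pairs below -0.8. The points of these correlations share arrays, slides and scan days, and they are given as a description. Average linkage on 1 minus r, stopped at 4 clusters after the values had been seen, gave clusters of 88, 65, 36 and 11 probes, numbered 1 to 4. The median r within them was 0.48 in cluster 1, 0.67 in cluster 2, 0.54 in cluster 3 and 0.46 in cluster 4. The clusters were cut from these same r values, so a higher r within clusters than between them is built in. All 4 were lower in the testes, with median differences of -2.48, -2.64, -2.61 and -2.07 for clusters 1, 2, 3 and 4.

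**Figure D2:**
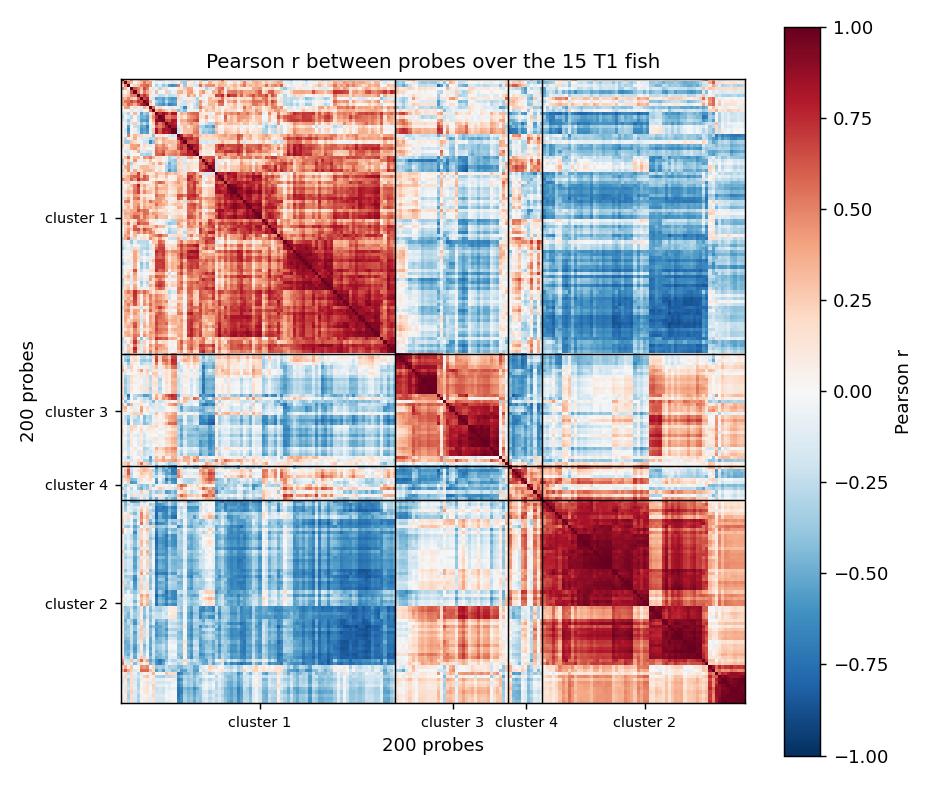
Pearson's r over the 15 T1 gonads between each pair of the 200 probes, ordered by the clustering, with black lines between clusters (red for positive r, blue for negative r). Clusters 1 and 2 hold mostly positive r inside (median 0.48 and 0.67) and mostly negative r towards each other (92.6% of pairs). The clusters were formed from these same r values.

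Cluster 1 was the largest one. The median of its 88 probes was 7.98 to 8.70 in the testes and 10.04 to 11.77 in the T1 gonads. The SD over T1 fish had a median of 0.74, and every T1 gonad was above all 20 testes for 60 of the 88 probes (2.52% of all probes). The number of its probes at or below the highest testis was 19, 10, 10 and 6 in S fish 5, 6, 7 and 8, and 0 to 7 in the T1 fish of scan day 2. Over all probes the share was 82.4, 82.1, 85.4 and 81.5% in S fish 5, 6, 7 and 8, and 78.0 to 83.4% in the others. The rule chose the probes for a difference between these ages, and the clusters were formed from these T1 fish. Nothing is therefore read from these counts, here or in the other clusters. The 4 lowest T1 gonads included 3 S fish of scan day 1, and the S fish of scan day 1 lay at 10.04 to 10.78, against 10.71 to 11.77 in the 11 T1 fish of scan day 2. The probes of rank 1 and rank 2 belonged to this cluster, which held 44% of the set and 7 of the 20 probes with the lowest differences, while cluster 2 held 8 and cluster 3 held 5 of them.

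Cluster 2 held transcripts whose level differed widely between T1 fish, as did those of cluster 3. The median of its 65 probes was 7.42 to 7.75 in the testes and 7.86 to 12.49 in the T1 gonads, and the median SD over T1 fish was 1.79, against 1.56 in cluster 3. F fish 1 and 2 had 7.87 and 7.86, close to the testes, and 34 and 37 of the 65 probes lay at or below the highest testis in these 2 fish, while over all probes the share was 80.0% and 78.0%. S fish 1 and 4 had 9.41 and 9.47, and the other F fish lay at 9.92 to 11.07. S fish 2 and 3 had 11.69 and 10.79, and the 4 S fish of scan day 1 had 11.52 to 12.49. Every T1 gonad was above all 20 testes for 22 of the 65 probes (2.52% of all probes). At T1 the cluster ran opposite to cluster 1, with an r between the medians of the clusters of -0.71 over 15 fish, and of -0.33 over the 11 fish of scan day 2. The relations of cluster 1 to the other clusters also moved with the scan days included, with an r of -0.32 over 15 fish and of -0.81 over 11 towards cluster 3, and of 0.06 and 0.72 towards cluster 4. The clusters were formed from r over these fish, so the r between medians of clusters, here and below, in part repeats the clustering.

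Cluster 3, with 36 probes, had its highest median in 1 fish. That fish was among the T1 gonads that formed the clusters, so its position in part repeats the clustering. Its median was 14.02 in F fish 7, against 9.35 to 11.15 in the other F gonads and 9.38 to 11.91 in S. In the testes it was 7.53 to 7.85 in FF and FS and 7.56 to 7.97 in SS, and in SF it was 8.27 in fish 3 and 7.53 to 7.73 in the other 4 fish. Cluster 4, with 11 probes, had the smallest spread at T1 (median SD 0.51). Every T1 gonad was above all 20 testes for 9 of its 11 probes (2.52% of all probes). Its median was 9.67 to 10.81 in F and 10.003 to 11.11 in S, against 7.67 to 8.54 in the testes. F fish 7, the highest for cluster 3, was the lowest for cluster 4, and over the 15 T1 fish the medians of clusters 3 and 4 had an r of -0.79 (-0.87 over the 11 fish of scan day 2).

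**Figure D3:**
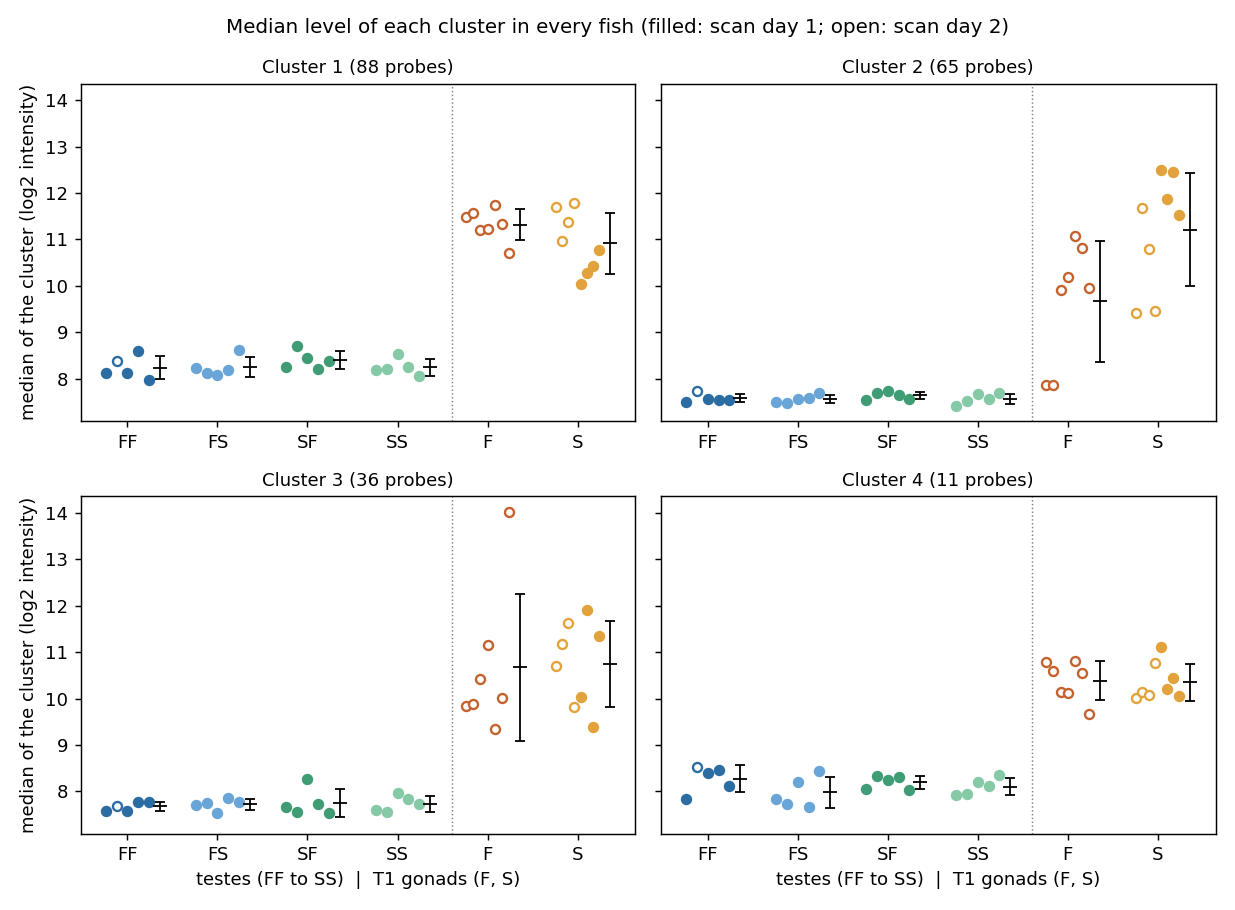
Median log2 level of the probes of each cluster in every fish (points, filled for scan day 1 and open for scan day 2), with the group mean and SD as a bar at the right of each group and testes left of the dotted line. The testes lie at 7.42 to 8.70 in all 4 panels, while the T1 gonads spread over 7.86 to 12.49 in cluster 2 and reach 14.02 in F fish 7 in cluster 3.

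Some testes stood above the others for part of the set. The number of probes more than 1 log2 unit above the median of the other 19 testes was 14 in SS fish 3, 12 in FS fish 5, 12 in SF fish 3, 11 in FF fish 4, 11 in SS fish 4, 9 in SF fish 2 and 7 in SS fish 5, and 0 to 2 in the other 13 testes. As a share of the set and of all probes, this was 7.0% and 2.15% in SS fish 3, 6.0% and 1.52% in FS fish 5, 6.0% and 0.988% in SF fish 3, 5.5% and 2.36% in FF fish 4, 5.5% and 2.02% in SS fish 4, and 4.5% and 1.42% in SF fish 2. In SS fish 5 the share of the set, 3.5%, was below the 4.07% of all probes. The probes concerned were mostly of cluster 1 in FF fish 4 (9 of 11), FS fish 5 (9 of 12) and SF fish 2 (7 of 9), and of cluster 3 in SF fish 3 (8 of 12). These 7 testes came from all 4 groups. The largest excess of any probe was 4.94 log2 units, in SF fish 3.

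The FS testes matter for this set because the rule asked FS fish 1, 2 and 4 to be close to the other testes. Compared with the mean of the 15 testes of FF, SF and SS, the median difference of the 200 probes was -0.09 in FS fish 1, -0.11 in fish 2, -0.10 in fish 3, -0.11 in fish 4 and 0.13 in fish 5. The number of probes within 0.5 was 176, 177, 183, 171 and 168 in FS fish 1 to 5. Over all probes the share within 0.5 was 58.9% in fish 1, 56.0% in fish 2 and 54.2% in fish 4, and 92.8% in fish 3 and 89.96% in fish 5. The closeness of fish 1, 2 and 4 was fixed by the rule, while for fish 3 and 5, which the rule did not use, 91.5% and 84.0% of the set lay within 0.5.

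Other probes against the same targets were read on the same arrays, and the rule used them only in part. For 131 of the 200 targets the array carried 263 further probes, and 69 targets had none. Of the 263, 255 were lower in the testes by at least 2-fold, 7 were lower by less and 1 was higher, by 0.29 log2 units. Of all 24200 probes, 2009 were lower by at least 2-fold in the matrix of the authors. The median difference of the 263 was -2.29, against -2.54 for the chosen probes of the same targets. The chosen probe was the lowest passing probe of its target. The difference lay within 1 log2 unit of that of the chosen probe for 237 of the 263, and r across probes was 0.89. Some other probes were lower than the chosen one. For 1 target they had -5.26 and -5.08, against -2.37, and for another target 1 probe had -3.68, against -2.48. A probe that was lower than the chosen one in the matrix of the authors had not met the limit for the FS testes. For such targets, the closeness of FS to the other testes holds for the chosen probe and not for every probe. Over the 15 T1 fish the other probe followed the chosen one with a median r of 0.99. The probes of a target shared RNA and arrays, and without their sequences it is not known whether they overlap, so they are not independent measurements.

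**Figure D4:**
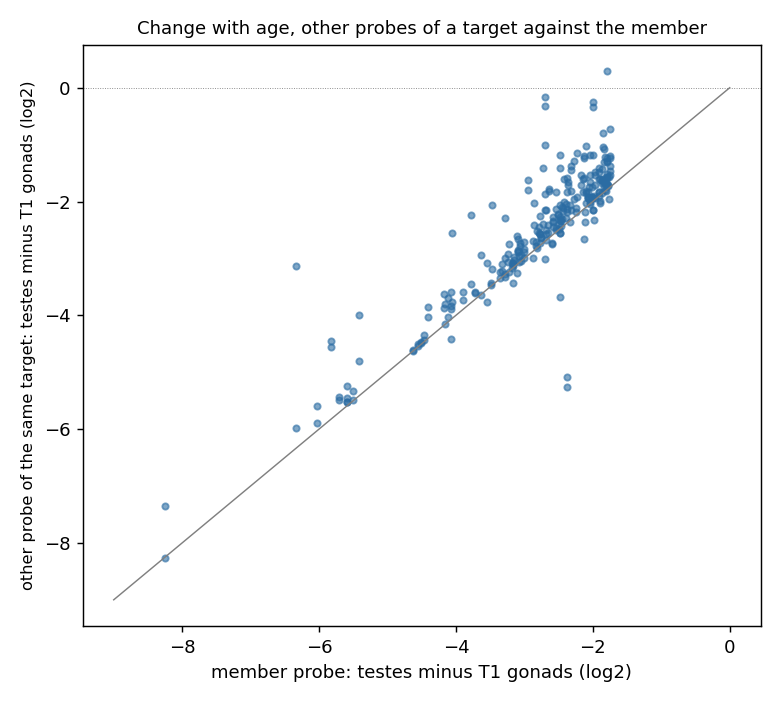
Difference with age (testes minus T1 gonads, log2) of 263 other probes (y axis) against that of the chosen probe of the same target (x axis), with the line of equal values in grey. Most points lie near the line (237 within 1 log2 unit) and 1 lies above 0, at 0.29.

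The names of the targets were a property that the rule did not use. Contigs assembled from several reads made up 69 of the 200 targets (34.5%) and 28.2% of all targets on the array, and the rest were single cDNA reads whose names start with a code between cDN22 and cDN35. The sources used here do not say what the codes stand for. The code cDN22 was the one furthest above its share on the array, with 19 of the 200 targets (9.5%) against 2.79% of all targets, followed by cDN32, with 16 (8.0%) against 4.88%. The code cDN26 had 9 (4.5%) against 8.21%. The clusters differed in this respect, with cDN22 in 13 of 65 targets of cluster 2 (20.0%) and in 0 of 88 of cluster 1. Reads with 1 code are not independent of each other, since several can come from the same transcript, and no test was made.

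The comparison of F with S asked whether growth before T1 went with a different level of these transcripts. Per the study, groups derived from F later held a larger share of females than groups derived from S. Growth and future sex therefore cannot be told apart in this comparison. With limma, no probe of the set was called (absolute fold change of at least 1.5 and adjusted p under 0.01 over all 24200 probes), and the share called over all probes was 0%. The study, with the same thresholds, reported differing genes in F vs. S. It took medians per gene and used a criterion for reliable probes, neither of which was done in the main fit here. At an unadjusted p under 0.05, 18 of the 200 probes (9.0%) were higher in F and 31 (15.5%) were lower, against 11.3% and 9.1% of all probes. The median difference, F minus S, was -0.02, with a range of -3.09 to 1.38. No probe of the set had F and S gonads that did not overlap, and over all probes this held for 0.256% (higher in F) and 0.149% (lower in F). With all 6 groups in 1 fit, which pools the spread of F and S with that of the testes, 1 probe of the set was called, lower in F, against 0.388% of all probes.

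The clusters were built from the same F and S gonads, so their positions in this comparison repeat the clustering and are given as a description. The difference of F minus S was above 0 for 76 of 88 probes of cluster 1, with a median of 0.45, and below 0 for 65 of 65 probes of cluster 2, with a median of -1.45, while 54.2% of all probes were above 0. The medians of clusters 3 and 4 were -0.04 and -0.03. Scan day moved with these values. Against the 4 S fish of the same scan day, the median of F minus S was -0.05 in cluster 1 and -0.50 in cluster 2, and against the 4 S fish of the other scan day it was 0.99 in cluster 1 and -2.33 in cluster 2. With the same-day S fish no probe of the set was called (0% of all probes), and 1 was higher and 6 lower at an unadjusted p under 0.05 (3.5% and 4.39% of all probes). With the other-day S fish 9 probes of the set (4.5%) were called higher, all of cluster 1, and 5 (2.5%) lower, all of cluster 2, against 1.91% and 3.25% of all probes. S fish 5 to 8 were the only T1 gonads of scan day 1 and of slide 1, so their scan day, their slide and the fish themselves cannot be told apart.

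**Figure D5:**
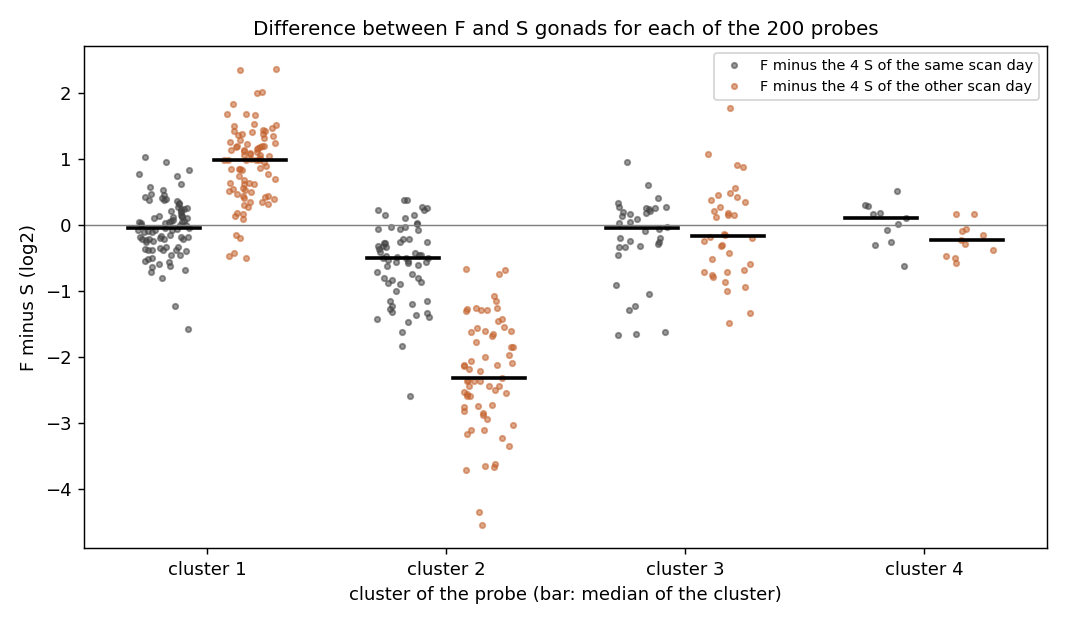
Difference between F and S gonads (log2) for each of the 200 probes by cluster, taken against the 4 S fish of the same scan day (grey) and the 4 S fish of the other scan day (orange), with the cluster median as a black bar. Against the S fish of the same day the medians of clusters 1 and 2 are -0.05 and -0.50, and against those of the other day they are 0.99 and -2.33.

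The probes with the smallest limma p in F vs. S illustrate both directions. CUST_16093_PI416070213, of cluster 1, ran between 10.47 and 12.20 in F (median 10.82) and between 8.80 and 11.06 in S (median 9.59). S fish 4, at 11.06, was the only S gonad within the range of F. The means were 11.13 ± 0.66 in F and 9.78 ± 0.72 in S (SD), and the difference was 1.35 ± 0.33 (SE), with an adjusted p of 0.0937 by limma. It was 1.03 against the S fish of the same scan day. CUST_3690_PI415922062, also of cluster 1, ran between 9.40 and 11.30 in F (median 10.47) and between 8.67 and 10.30 in S (median 9.63). It averaged 10.44 ± 0.56 in F and 9.56 ± 0.53 in S, a difference of 0.89 ± 0.26 (SE) with a limma adjusted p of 0.118, and of 0.62 within the scan day.

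Of the probes lower in F, CUST_1749_PI416070213, of cluster 2, ran between 9.76 and 11.98 in F (median 10.82) and between 11.13 and 12.69 in S (median 11.93). F fish 3 and 7, at 11.45 and 11.98, reached into the range of S. The means were 10.80 ± 0.78 in F and 11.89 ± 0.52 in S (SD). The difference was -1.09 ± 0.32 (SE), with a limma adjusted p of 0.115, and -0.89 within the scan day. CUST_5725_PI416070213, also of cluster 2, ran between 7.36 and 11.09 in F (median 9.49) and between 9.69 and 13.80 in S (median 11.97). F fish 1, 2 and 7, at 7.36, 7.65 and 8.36, were at the level of the testes, which was 7.37 to 8.57. The means were 9.29 ± 1.51 in F and 11.76 ± 1.54 in S (SD). The difference was -2.47 ± 0.73 (SE), with a limma adjusted p of 0.118, and it was the probe called with all 6 groups in the fit (adjusted p 0.00919). That limma fit pools the spread of F and S with that of the testes, so its p does not measure the spread among F and S fish alone. Within the scan day the difference of this probe was -1.29, with a limma adjusted p of 0.695. In the 20 testes these 4 probes lay at 7.36 to 9.51.

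In the testes, FF was compared with SS, SF with SS, and SF with FF. These comparisons asked whether the transcripts, at their lower level, still differed with growth and feeding. None of the 200 probes was called in any of the 3 comparisons with limma, and the share called over all probes was 0.0992% in FF vs. SS (0.0207% higher and 0.0785% lower), 0% in SF vs. SS and 0% in SF vs. FF. With the same thresholds, but with medians per gene and a criterion for reliable probes, the study reported differing genes in FF vs. SS and SF vs. SS. It reported none in SF vs. FF. With all 6 groups in 1 fit, no probe of the set was called either, against 0.479% of all probes in FF vs. SS, 0.264% in SF vs. SS and 0% in SF vs. FF. In the limma fits of 2 groups, the smallest adjusted p of the set was 0.0226 in FF vs. SS, 0.0732 in SF vs. SS and 0.799 in SF vs. FF. At an unadjusted p under 0.05, 14 probes (7.0%) were higher and 16 (8.0%) lower in FF than in SS, against 11.1% and 7.75% of all probes. In SF vs. SS there were 18 higher (9.0%) and 3 lower (1.5%), against 9.64% and 8.13%, and in SF vs. FF 9 higher (4.5%) and 1 lower (0.5%), against 3.06% and 2.74%. Slides held mostly 1 group of testes, so slide and group could be separated only in part. Per the methods of the study, each feeding group was also kept in its own tank, so feeding and tank cannot be told apart.

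The median difference was 0.06 for SF minus SS, with 127 of the 200 probes above 0, and 0.07 for SF minus FF, with 141 above 0, while for FF minus SS it was 0.00, with 101 above 0. Above 0 were thus 63.5%, 70.5% and 50.5% of the set, and 52.8%, 50.1% and 51.9% of all probes. Over all probes these medians were 0.01, 0.00 and 0.01. Of these 3 groups, SF had the highest share of the 200 probes well above background, with 77.0 to 91.5%, against 66.0 to 81.0% in SS and 52.0 to 76.5% in FF, and the part of array brightness in these shifts was not tested. The arrays of the 2 groups did not overlap for 2 probes higher and 4 lower in FF than in SS (2.76% and 2.84% of all probes), 6 higher and 0 lower in SF than in SS (1.9% and 2.19%), and 2 higher and 0 lower in SF than in FF (0.479% and 0.541%).

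Comparisons with FS are given as a description, since the rule limited how far FS could lie from the other testes. In limma fits of 2 groups, no probe of the set and none of all probes was called in FS vs. FF, FS vs. SS or FS vs. SF. A fit with all 6 groups was not run for FS. The study, with these thresholds, reported differing genes in each of these comparisons, most of them in FS vs. SS. Over all probes, FS fish 1, 2 and 4 lay further from the other testes than fish 3 and 5, so the group was not uniform. The median difference of the set was -0.01 against FF, -0.01 against SS and -0.07 against SF. At an unadjusted p under 0.05 there were 9, 22 and 20 probes of the set (4.5%, 11% and 10%), against 23.8%, 28.3% and 24.7% of all probes.

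The last test asked whether the fall with age differed between fish that kept growing fast and fish that kept growing slowly, as (FF minus F) minus (SS minus S). The share of future females also differed between the F and S lines, so growth and future sex cannot be told apart here either. Limma called 0 of the 200 probes, with a share over all probes of 0.0702% (0.00826% above 0 and 0.062% below). At an unadjusted p under 0.05 the contrast was above 0 for 13 probes (6.5%) and below 0 for 5 (2.5%), against 8.15% and 7.53% of all probes, and the smallest adjusted p of the set was 0.118. This limma fit pools the spread of all 4 groups, with a median SD of 0.85 in F and 1.01 in S, against 0.26 in FF and 0.22 in SS. Its p therefore does not measure the spread at either age alone. The median of the contrast was 0.05, with a range of -1.84 to 3.46. Its medians were -0.41 in cluster 1 and 1.40 in cluster 2, of opposite sign to the F minus S values of these clusters, with which the contrast shares its T1 fish and their scan days.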

How the data were processed

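The authors deposited the scanner output of 35 1-colour Agilent arrays (Feature Extraction 10.7.3.1 per the file headers), with the linear intensity of each spot and of its background, and a matrix of log2 values, which per the methods was background corrected by normexp and quantile normalized. The matrix chose the 200 probes. The levels come from the scanner output: median intensities corrected by normexp (offset 50), quantile normalization over all arrays without the controls, log2, and the median of the spots of a probe, with 1417 control spots per array and 2763 spots flagged over all arrays left out. No spot was saturated. No filter on low values was used, so all 200 probes entered every test, with 2 values missing among them.

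Groups were compared with limma 3.58.1 (R 4.3.3; lmFit and eBayes, the groups compared in the fit, no covariate), with Benjamini-Hochberg adjustment over 24200 probes and the thresholds of the methods. Every p-value measures the spread between fish, and at T2 the fish of a group shared a tank. The steps were tested on simulated data. Python 3.11.15 with matplotlib 3.10.9 drew the plots. Brightness and the number of arrays limit the precision.

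The probes, lists and tests were chosen with earlier results of these data known. Named by identifier are the 2 probes with the lowest change with age and the 2 higher and 2 lower ones with the smallest p in F vs. S. Planned lists of marker genes were not used, since no gene names could be matched. Alternatives were other background corrections and scalings, the authors' matrix, a filter on dim probes, the mean of spots, a fit of all groups, array weights, leaving out each array, and blocks for slide, scan day or replicate number. Within-slide and within-scan-day values of the change with age, and its value without the S fish of scan day 1, were added after the data were seen. The labels give 332 days post fertilization for T2, and 1 protocol text another age.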

Additional observations from a re-analysis of the deposited data

Results flagged for a closer look

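Dixon's criterion was applied within each group to the median of the set, the medians of the clusters and the probes named by identifier. In 8 of these 66 checks, 1 fish stood apart from the others of its group. The checks share fish and probes, so their number is not set against a rate for chance. FS fish 5 accounted for 4 of the 8. Its median over the 200 probes was 8.12, against 7.78 to 7.83 in the other FS testes, and 12 of the probes lay more than 1 log2 unit above the other testes. The probe of rank 1, CUST_14589_PI416070213, was 9.85 in it, against 8.77 to 8.97, CUST_1749_PI416070213 was 9.51, against 7.83 to 8.06, and CUST_5725_PI416070213 was 8.19, against 7.69 to 7.80. FS fish 5 lay on slide 4 with 3 SF testes, while the other FS testes lay on slide 3, and the part of the slide was not tested.

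The median of cluster 3 was 14.02 in F fish 7, against 9.35 to 11.15 in the other F gonads, and 8.27 in SF fish 3, against 7.53 to 7.73 in the other SF testes. F fish 7 was among the gonads that formed the clusters, so its flag is not independent of them. CUST_14589_PI416070213 was 12.01 in FF fish 4, against 8.53 to 9.05 in the other FF testes. CUST_4498_PI415922062 was 8.91 in SS fish 5, against 7.86 to 7.95 in the other SS testes.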

How the results depend on the processing

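The count of called probes of the set stayed at 0 in all 5 tested comparisons under every alternative that was run, with 2 exceptions, each of 1 probe: F vs. S with all 6 groups in the fit (1 probe, lower in F) and the contrast of the change with age with array weights (1 probe, below 0). F against the S fish of the other scan day alone, given in the report, called 14. It was 0 to 0 when each array was left out in turn. With a replicate block it was also 0 in each comparison. The groups share only replicate numbers, not fish: correlations of the deviations of same-numbered fish ran between -0.24 and 0.78, and 1 of 7 pairs in F vs. S and 1, 2 and 2 of 5 pairs in FF vs. SS, SF vs. SS and SF vs. FF correlated best with their own number.

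The median change with age, -2.48, kept its sign in every setting, and all 200 probes were lower in the testes in each background correction and scaling. It was -4.09 with the processed signal scaled to the 75th percentile, -2.85 with an offset of 0, -2.82 with normexp on the foreground alone, and -3.40 with the spike-in probes as the scale, where the median of all probes also moved, to -1.06, leaving -2.34 relative to it. The spike-in level, relative to the 75th percentile, averaged 4.40 in SS and -1.09 to 0.63 in the other groups, and this scaling was not run without SS. On the main scale, the median change was -2.54 to -2.45 with each array left out, -2.76 within scan day 1, and -2.39 without the S fish of scan day 1. Dim testis signal limits the exact fall of most probes, since 77 of 200 were well above background in all testes.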
